A study of Rattus norvegicus with 18 samples.

Results

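The 78 rows of the kidney FPKM table whose symbol begins with Il and a digit, out of 32116 rows in all, hold the interleukins and the receptors that read them. By their symbols 36 were counted as ligands, with the antagonists Il1rn and Il36rn among them, and 40 as receptor chains. The other 2 are Il18bp, a soluble protein that captures interleukin 18, and Il4i1, an amino acid oxidase that is named for its induction by interleukin 4 and is not an interleukin. Il13ra1 stands in the table with 2 rows, a gene on chromosome X and a copy on chromosome 11 whose 3751 bases span no intron, so reads may be split between them and both levels are uncertain. The choice rests on symbols alone. Receptor partners with other names, such as the shared beta chain Csf2rb, are therefore described separately. Whole kidneys of rats were sequenced in 3 groups of 6 libraries. NC rats were untreated. CKD rats received 100 mg of adenine per kg daily, a purine overload that damages the tubules. SZ rats received that dose of adenine and, in addition, 300 mg of SZ-A per kg daily, so both of the latter groups carry the adenine treatment. The sources used here do not give what SZ-A is, nor the strain, sex and age of the rats or the length of dosing. Nor do the labels state whether libraries were made from different animals. The p-values below therefore rest on variation among libraries, some of which may be technical.

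Interleukins are secreted messengers between immune cells, and between immune cells and the tissue around them. The interleukin 1 family signals through receptors that recruit MyD88 and activate NF-kB, and it is held back by a receptor antagonist, by decoy receptors and by a binding protein. The interleukin 6, 10 and 12 families and the common gamma chain family signal through paired receptor chains, JAK kinases and STAT factors, with SOCS proteins as feedback. Interleukin 17 receptors use a separate adaptor and are found on epithelium as well as on immune cells. In the kidney, tubular epithelium and infiltrating macrophages and T cells are known sources and targets of these signals after injury.

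Recovered read totals ran from 15354358 to 18532375 per library. The kidney label fits the markers: the summed FPKM of 4 proximal tubule genes was 472 or more in every library, while sums for 5 adrenal and 5 urothelial genes stayed at or below 1.59. The proximal tubule sum had a median of 2453 in NC, 980 in CKD and 1835 in SZ. In tissue of mixed cells a lower level can mean fewer cells of a type or less RNA per cell, and these cannot be told apart here. In 3 libraries, CKD 5, SZ 3 and CKD 2, longer genes read low: for each doubling of gene length, values relative to the 18-library mean changed by -0.31, -0.25 and -0.21 on the log2 scale. CKD 1 had a slope of -0.10, and the others lay between 0.011 and 0.115. Where the call of an interleukin gene printed below changes without the first 3 of these, the adjusted p without them is given too.

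The most abundant interleukin genes of the untreated kidney were 2 ligands and 3 receptor chains. FPKM divides by gene length, so levels of different genes can be set side by side. The median NC level was 63.7 FPKM for Il33, a nuclear alarmin that is released from damaged cells, 28.8 for the receptor chain Il4r and 26.3 for Il34, a ligand of the CSF-1 receptor. Next came Il11ra1, the receptor of interleukin 11, at 22.1 and Il6st, which encodes gp130, the signalling chain shared by the interleukin 6 family, at 20.0. None of these 5 genes was below 13.4 FPKM in any of the 18 libraries. The NC ranges of Il4r, Il34, Il11ra1 and Il6st overlap, so their order is not resolved. At the other end 8 ligands (Il3, Il4, Il5, Il22, Il25, Il36a, Il36g and Il1f10) were listed at 0 in all 18 libraries.

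Of the 78 genes, 35 reached an FPKM of 1 in at least 6 libraries and were tested with limma, a linear model with shared variance, on log2(FPKM + 1). Differences below are on that log2 scale, which understates the change of genes with low FPKM, and a gene counts as called at an adjusted p under 0.05 over all 13851 genes tested. The tested set holds 10 ligands, 24 receptor chains and Il18bp. Of the 35, 17 were at or above 1 FPKM in all 18 libraries, while 9 had no NC library at 1 FPKM and entered through the adenine groups. Il1b, Il6r, Il2rb, Il20ra, Il16, Il7r and Il15ra had 1 to 5 NC libraries at 1 FPKM and also passed only with adenine libraries. The filter thus favours genes that are higher with adenine, so the counts describe the tested genes and support nothing beyond them. Another 9 genes were tested only by limma's voom on the recovered reads, and 34 were below the filters of both tests.

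With adenine, 24 of the 35 tested interleukin genes rose and 2 fell. Of all genes tested, 24.4% were called higher and 26.0% lower in CKD than in NC. The median difference was 0.93 over the 35 genes and -0.04 over all 13851. The ranges of the 6 CKD and 6 NC libraries did not overlap for 21 of the 35, with 20 higher in CKD and 1 lower. The share of all genes tested without such overlap was not computed, so this count cannot be set against a background. Among ligands 8 of 10 rose and 0 fell. Among receptor chains 15 of 24 rose and 2 fell, Il20ra and Il17rd. By voom 29 of 44 rose and 2 fell, against 24.6% and 24.2% of the 15980 genes in that test. Scaling moves the balance over all genes. As deposited, 48.4% of the calls over all genes were upward, against 84.0% when each library was scaled to the same FPKM sum, which moved the median of all genes to 0.35. Of the 36 interleukin genes tested on that scale 29 were higher and 2 lower, where 57.1% of all 13913 genes tested were called. Counts within families and pathway lists below are to be read against the same shares of all genes.

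In SZ against CKD, 11 of the 35 genes fell and 1 rose, where 6.82% of all genes tested were called lower and 4.16% higher. Those that fell were the ligands Il1b, Il1rn, Il19 and Il24, the receptor chains Il1rl1, Il17rb, Il6r, Il2ra, Il2rg and Il7r, and Il18bp. The 1 that rose was Il20ra. Their median difference was -0.32, and that of all genes 0.006. By voom 11 of 44 fell and 1 rose, against 6.03% and 3.59% of the genes in that test. Scaling to the same FPKM sum gave 14 lower and 1 higher of 36 tested, where 14.5% of all genes tested were called. The share of all called genes that were higher went from 37.9% to 14.4%. Counting both directions, 1521 of the 13851 genes were called in SZ against CKD, and this share turned on single libraries: it was 22.1% without SZ 3, 20.2% without CKD 1, 7.29% without CKD 3, 6.14% without SZ 2, 6.0% without SZ 1, 4.83% without CKD 5 and 3.85% without SZ 4. In the same order 15, 15, 9, 9, 8, 8 and 8 of the 35 interleukin genes were called. This comparison and the one before share the CKD libraries, so their differences are not independent of each other.

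**Figure D1:**
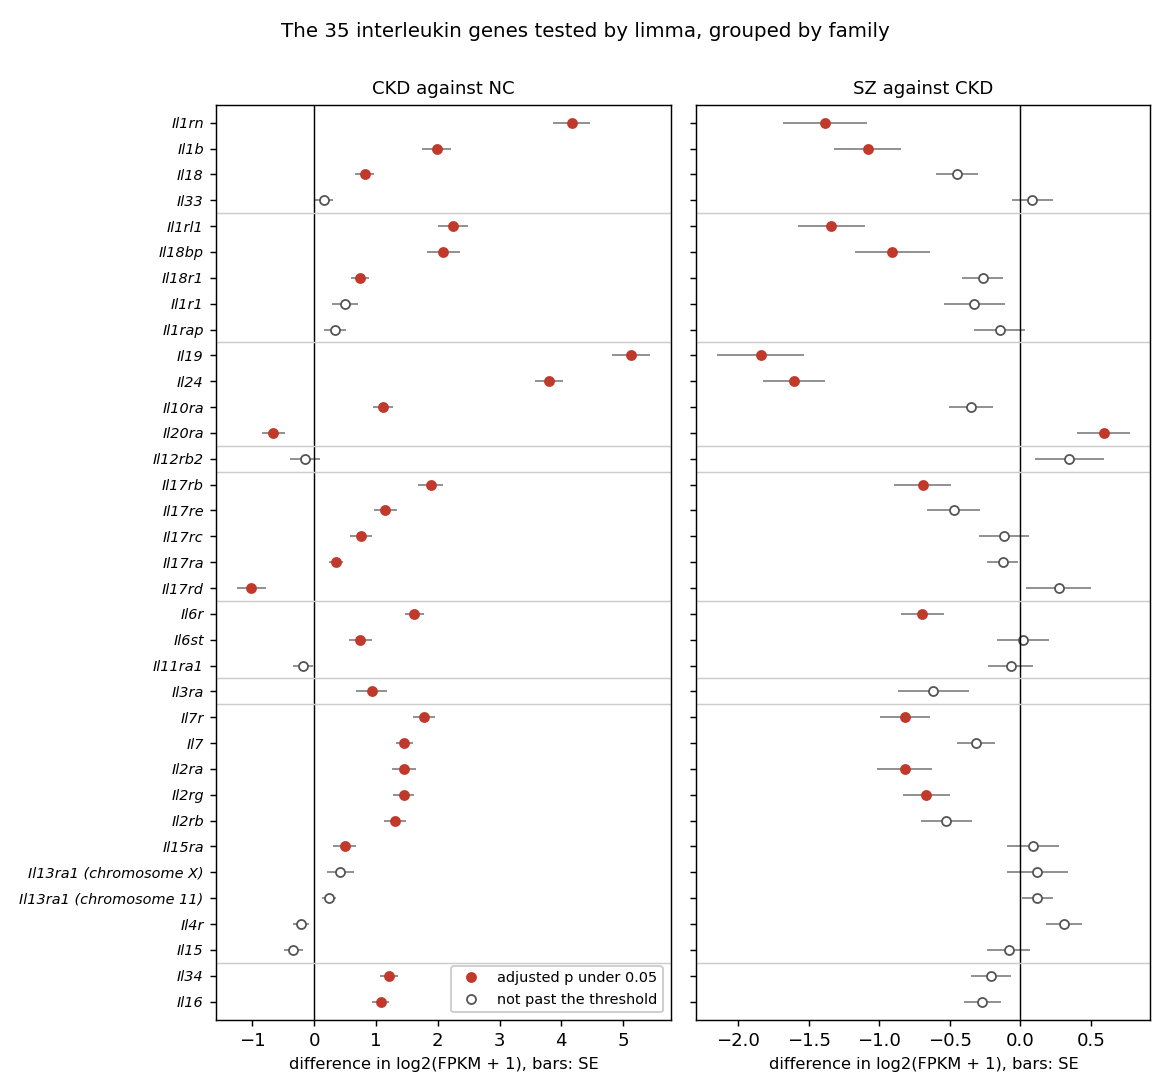
Difference in log2(FPKM + 1) with its SE for the 35 interleukin genes tested by limma, CKD against NC at left and SZ against CKD at right, with lines between families. Filled points passed an adjusted p of 0.05: 24 lie to the right of 0 and 2 to the left in CKD against NC, and 1 and 11 in SZ against CKD.

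Within the interleukin 1 family, adenine raised the agonist Il1b and, by more, the antagonist Il1rn. Il1b encodes interleukin 1 beta, a fever and inflammation mediator made by myeloid cells. It ran from 0.733 to 4.04 FPKM in NC with a median of 1.29, from 5.75 to 12.9 in CKD with a median of 9.03, and from 2.12 to 5.08 in SZ with a median of 3.97. Every CKD library lay above every library of the other groups, and NC 6, at 4.04, was the only NC library inside the SZ range. Il1b rose by 1.98 log2 units in CKD (SE 0.24, limma adjusted p = 2.6e-06) and fell by 1.08 in SZ against CKD (SE 0.24, adjusted p = 0.011).

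Il1rn encodes the receptor antagonist, which occupies the interleukin 1 receptor without signalling. It ran from 0.377 to 0.945 FPKM in NC (median 0.601), from 18.1 to 56.8 in CKD (median 24.3) and from 5.95 to 20.3 in SZ (median 8.03). The NC libraries stayed below 1 FPKM, and 2 SZ libraries reached the lower end of the CKD range. It rose by 4.17 log2 units with adenine (SE 0.30, limma adjusted p = 1.4e-08) and fell by 1.39 in SZ against CKD (SE 0.30, adjusted p = 0.0105).

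Il18, whose product is activated by caspase 1 as that of Il1b is, moved less. Its range was 2.25 to 4.04 FPKM in NC, 4.65 to 10.7 in CKD and 3.64 to 4.71 in SZ. The rise in CKD was 0.82 log2 units (SE 0.15, limma adjusted p = 0.00019), and the difference of SZ from CKD was -0.45 (SE 0.15, adjusted p = 0.056), not past the threshold. Without SZ 3 alone that p was 0.043 and without CKD 1 alone it was 0.018. Il33 differed from these 3 ligands in level and response: its medians were 63.7, 71.7 and 80.5 FPKM in NC, CKD and SZ, all 3 ranges overlapped, and the CKD difference of 0.16 (SE 0.15) had an adjusted p of 0.37. Il1a, the cell-bound relative of Il1b, had 0 reads in the 6 NC libraries, 26 in CKD and 21 in SZ, so its level stayed near the limit of counting.

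The inhibitors can be set against their targets within each library, a description chosen after the values were seen. The FPKM ratio of Il1rn to Il1b ran from 0.234 to 0.618 in NC with a median of 0.456, from 1.51 to 4.81 in CKD with a median of 3.43, and from 1.35 to 5.87 in SZ with a median of 2.62. The antagonist transcript was thus the scarcer of the pair in every NC library and the more abundant in every CKD and SZ library. Il18bp over Il18 ran from 0.583 to 1.47 in NC, from 2.03 to 3.41 in CKD and from 1.19 to 3.48 in SZ, with medians of 0.882, 2.35 and 1.80. CKD and SZ libraries overlapped widely in the ratio of Il1rn to Il1b. For Il18bp over Il18, SZ 3 (3.48) lay above every CKD library and SZ 1 (2.044) just above CKD 2 (2.025). All other SZ libraries lay below every CKD library. Without CKD 2, CKD 5 and SZ 3, Il18bp over Il18 ran from 2.22 to 3.205 in CKD and from 1.188 to 2.044 in SZ.

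**Figure D2:**
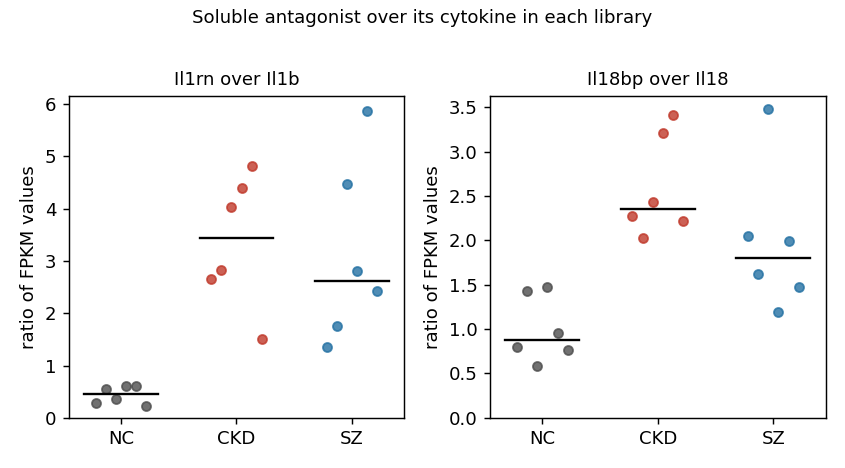
Ratio of FPKM values of Il1rn to Il1b and of Il18bp to Il18 in each library, with group medians as bars. The NC libraries lie below 1 for Il1rn over Il1b, and the CKD and SZ libraries lie above 1 and overlap with each other.

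Il18bp itself ran from 2.23 to 5.18 FPKM in NC (median 2.84), from 10.6 to 36.6 in CKD (median 13.6) and from 5.45 to 16.4 in SZ (median 7.32). The CKD libraries lay above all NC libraries, with CKD 5 far above the others, and SZ 3 fell inside the CKD range. Both are libraries in which values followed gene length, and Il18bp is short at 1155 bases. The rise was 2.09 log2 units (SE 0.27, limma adjusted p = 5.0e-06). The fall of 0.91 in SZ against CKD (SE 0.27, adjusted p = 0.036) was lost without any 1 of CKD 3, CKD 4, CKD 5, SZ 1, SZ 2, SZ 4, SZ 5 or SZ 6 (adjusted p = 0.054 to 0.095), and had an adjusted p of 0.012 without CKD 2, CKD 5 and SZ 3 together.

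Among the interleukin 1 family receptors tested by limma, Il1rl1 had the largest differences. It encodes ST2, the receptor of interleukin 33, in a membrane and a soluble form that a level for the whole gene does not separate. It ran from 0.255 to 0.674 FPKM in NC (median 0.459), from 3.29 to 10.6 in CKD (median 6.52) and from 0.779 to 2.98 in SZ (median 1.63). The 3 ranges did not overlap at all. Il1rl1 rose by 2.25 log2 units in CKD (SE 0.24, limma adjusted p = 5.9e-07) and fell by 1.34 in SZ against CKD (SE 0.24, adjusted p = 0.0042), while its ligand Il33 passed in neither comparison. Il18r1, the binding chain of the interleukin 18 receptor, rose from a median of 0.589 FPKM to 1.66, by 0.74 log2 units (SE 0.15, adjusted p = 0.00041), and stood at 1.19 in SZ.

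The signalling receptor Il1r1 and its partner chain Il1rap gave no call. Il1r1 had medians of 3.92, 6.05 and 5.52 FPKM in NC, CKD and SZ, and a CKD difference of 0.50 (SE 0.21, limma adjusted p = 0.0585). Il1rap had medians of 2.44, 3.41 and 3.30 FPKM and a CKD difference of 0.34 (SE 0.18, adjusted p = 0.135). Without CKD 2, CKD 5 and SZ 3 both were called higher in CKD, by 0.68 for Il1r1 (SE 0.16, adjusted p = 0.0031) and 0.51 for Il1rap (SE 0.13, adjusted p = 0.0050). The p of Il1r1 also fell under 0.05 on leaving out NC 2, CKD 1, CKD 2, CKD 5 or SZ 3 alone (0.017 to 0.045). The decoy receptor Il1r2, which binds interleukin 1 and does not signal, had 3 reads over the 6 NC libraries, 295 in CKD and 117 in SZ. It ran from 0.707 to 3.79 FPKM in CKD and from 0.528 to 1.16 in SZ, and voom called it higher in CKD than in NC (adjusted p = 1.2e-05). Il18rap, the second chain of the interleukin 18 receptor, went from a median of 0.235 FPKM to 0.939, with a voom difference of 1.57 (SE 0.41, adjusted p = 0.0041). Genes for 6 of these receptors (Il1r2, Il1r1, Il1rl2, Il1rl1, Il18r1 and Il18rap) lie side by side within 417 kb of chromosome 9, from 42384433 to 42800959 on mRatBN7.2. Of the 6, Il1rl1, Il18r1, Il1r2 and Il18rap were called higher in CKD by limma or voom, Il1r1 was not called, and Il1rl2 had 36 reads in all 18 libraries and was not tested.

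**Figure D3:**
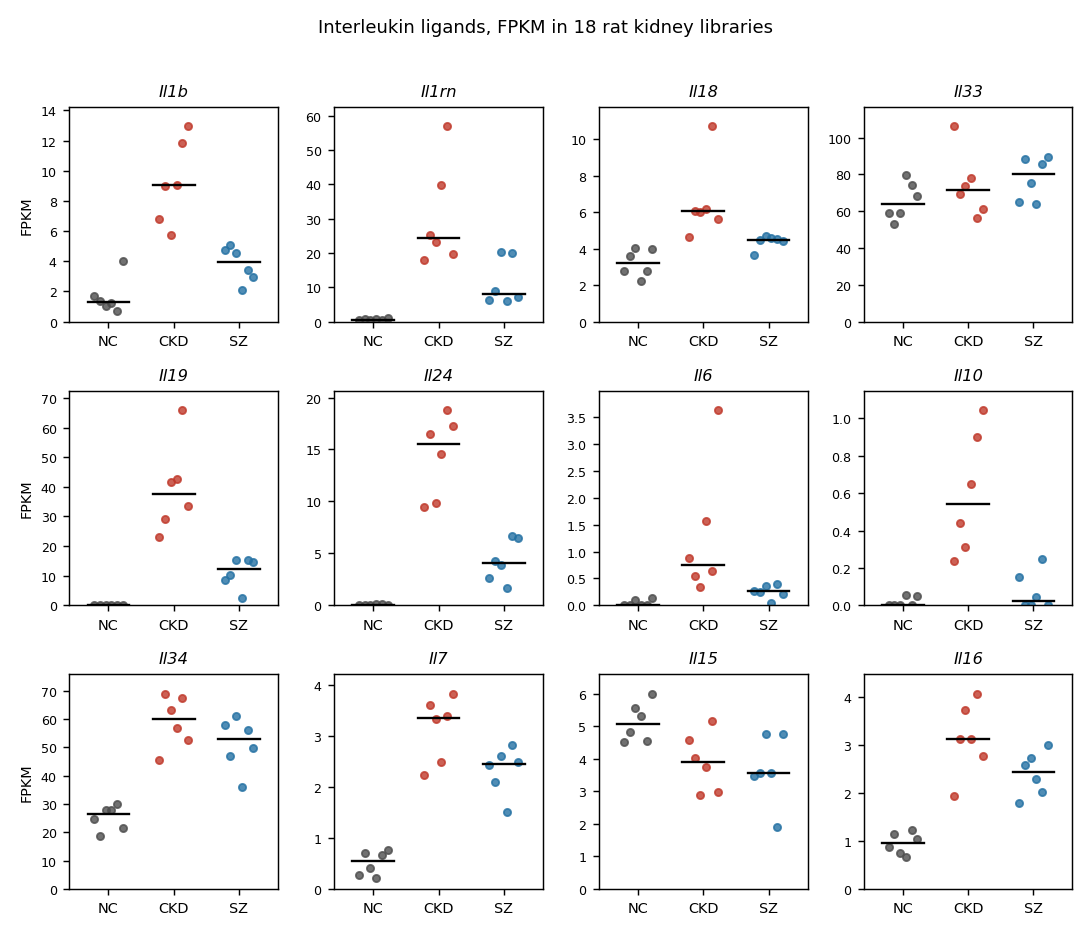
FPKM of 12 interleukin ligands in each library, 6 per group, with group medians as bars and every axis starting at 0. Il19 and Il24 are near 0 in NC and their CKD and SZ ranges do not overlap, while Il33 and Il15 overlap between all groups.

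Il19, Il1rn and Il24 had the largest rises among the 35 interleukin genes tested by limma, where voom on the reads, with no pseudocount of 1 FPKM, put Il24 (7.14, SE 0.75) above Il1rn (5.53, SE 0.67). Il19 and Il24 belong to the interleukin 10 family, act on epithelial cells and signal through Il20rb paired with Il20ra, or, for interleukin 24, also with Il22ra1. With Il20 and Il10 they lie in 1 cluster of 4 genes on chromosome 13, from 42353090 to 42477313 on mRatBN7.2. Because Il19 and Il24 moved together and Il20 lies between them, the 250 bases before the annotated start of each are shown, from RefSeq on GRCr8 (minus strand, chr13:44958715-44958964 for Il19, chr13:44936894-44937143 for Il20 and chr13:44910761-44911010 for Il24), written 5′ to 3′ along the gene. Capitals mark matches to the STAT motif TTCNNNGAA, searched on both strands.
Il19: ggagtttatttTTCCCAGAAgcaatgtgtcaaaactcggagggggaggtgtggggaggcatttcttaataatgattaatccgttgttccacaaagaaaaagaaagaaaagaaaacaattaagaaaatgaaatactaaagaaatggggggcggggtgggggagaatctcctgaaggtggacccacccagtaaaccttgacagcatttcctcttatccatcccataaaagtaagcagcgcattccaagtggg
Il20: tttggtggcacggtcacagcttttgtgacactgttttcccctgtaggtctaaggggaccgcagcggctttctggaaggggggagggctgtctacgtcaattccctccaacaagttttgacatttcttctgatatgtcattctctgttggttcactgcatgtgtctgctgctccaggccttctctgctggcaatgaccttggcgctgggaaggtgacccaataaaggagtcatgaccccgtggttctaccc
Il24: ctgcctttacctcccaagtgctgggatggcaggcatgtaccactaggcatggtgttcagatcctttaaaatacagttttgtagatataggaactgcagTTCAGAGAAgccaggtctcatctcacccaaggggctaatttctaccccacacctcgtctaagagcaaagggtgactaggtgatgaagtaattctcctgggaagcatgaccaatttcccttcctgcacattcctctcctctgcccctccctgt
The match in Il19 reads TTCCCAGAA at 239 to 231 bases before the start, and that in Il24 reads TTCAGAGAA at 152 to 144 bases before it. These letters are not in the Il20 window. The motif stands in 7.67% of the 33469 promoters of this length in the RefSeq table and in 5 of the 67 entries for interleukin genes, so a match is a common description and not a binding site. Motifs for AP-1, NF-kB and the TATA box were searched too, with no match in the Il19, Il20 and Il24 windows. The windows of Il1rn, Il1rl1 and Il17rd had no match to any of these motifs, and that of Il1b only to the TATA box.

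Il19 had 5 reads in the 6 NC libraries together, 2453 in CKD and 639 in SZ. Its level ran from 0 to 0.244 FPKM in NC, from 23.0 to 65.9 in CKD with a median of 37.6, and from 2.41 to 15.3 in SZ with a median of 12.4. The 3 ranges did not overlap, and the CKD median was above that of Il1b or Il1rn. Il19 rose by 5.12 log2 units (SE 0.31, limma adjusted p = 2.4e-09) and fell by 1.84 in SZ against CKD (SE 0.31, adjusted p = 0.0034).

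Il24 had 8 reads in NC, 1979 in CKD and 554 in SZ. It ran from 0.0529 to 0.115 FPKM in NC, from 9.50 to 18.8 in CKD (median 15.5) and from 1.69 to 6.65 in SZ (median 4.05), again with no overlap between groups. The rise was 3.80 log2 units (SE 0.22, limma adjusted p = 1.7e-09) and the fall in SZ was 1.60 (SE 0.22, adjusted p = 0.0021). Il20, between them in the genome, had 0 reads in NC, 28 in CKD and 9 in SZ. Il10, the anti-inflammatory member that gives the family its name, had 2 reads in NC, 90 in CKD and 10 in SZ. Its level ran from 0.238 to 1.04 FPKM in the 6 CKD libraries, at or below 0.0531 in NC and at or below 0.249 in SZ, under the filters of both tests. Every CKD library was above every NC library, and limma with no filter called Il10 higher in CKD than in NC (0.63, SE 0.10, adjusted p = 0.00017) and lower in SZ than in CKD (-0.55, SE 0.10, adjusted p = 0.011).

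The receptor chains of this family differed among themselves. Il20ra, a binding chain for interleukins 19, 20 and 24, ran from 0.298 to 2.41 FPKM in NC (median 1.20), from 0.147 to 0.700 in CKD (median 0.246) and from 0.545 to 1.67 in SZ (median 1.01). All CKD libraries but CKD 2 and CKD 6 lay below every SZ library, and NC 4 lay inside the CKD range. Il20ra fell by 0.66 log2 units with adenine (SE 0.19, limma adjusted p = 0.0064) and was 0.59 higher in SZ than in CKD (SE 0.19, adjusted p = 0.048). That second call is thin: it held in 6 of the 18 fits that left out 1 library and was lost (adjusted p = 0.055 to 0.12) without NC 1, NC 3, NC 5, NC 6, CKD 1, CKD 3, CKD 4, CKD 5, SZ 1, SZ 2, SZ 4 or SZ 5, and it was 0.077 without CKD 2, CKD 5 and SZ 3. The partner chain Il20rb had 3 reads in NC, 33 in CKD and 13 in SZ. Il22ra1, the alternative partner, had medians of 0.254, 0.465 and 0.530 FPKM and a voom difference in CKD of 0.68 (SE 0.54, adjusted p = 0.30).

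Il10ra, the ligand-binding chain of the interleukin 10 receptor on leukocytes, rose from a range of 1.23 to 3.20 FPKM in NC to 4.49 to 8.12 in CKD, by 1.12 log2 units (SE 0.16, limma adjusted p = 1.4e-05). In SZ it ran from 3.35 to 5.44 FPKM and overlapped with CKD (difference -0.35, SE 0.16, adjusted p = 0.15). Its partner Il10rb had 1 read in all 18 libraries. The whole of Il10rb, 15979 bases, lies inside the annotated span of Ifnar2 on the same strand, and Ifnar2 had a mean of 5.57 FPKM, so the level of Il10rb is uncertain.

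**Figure D4:**
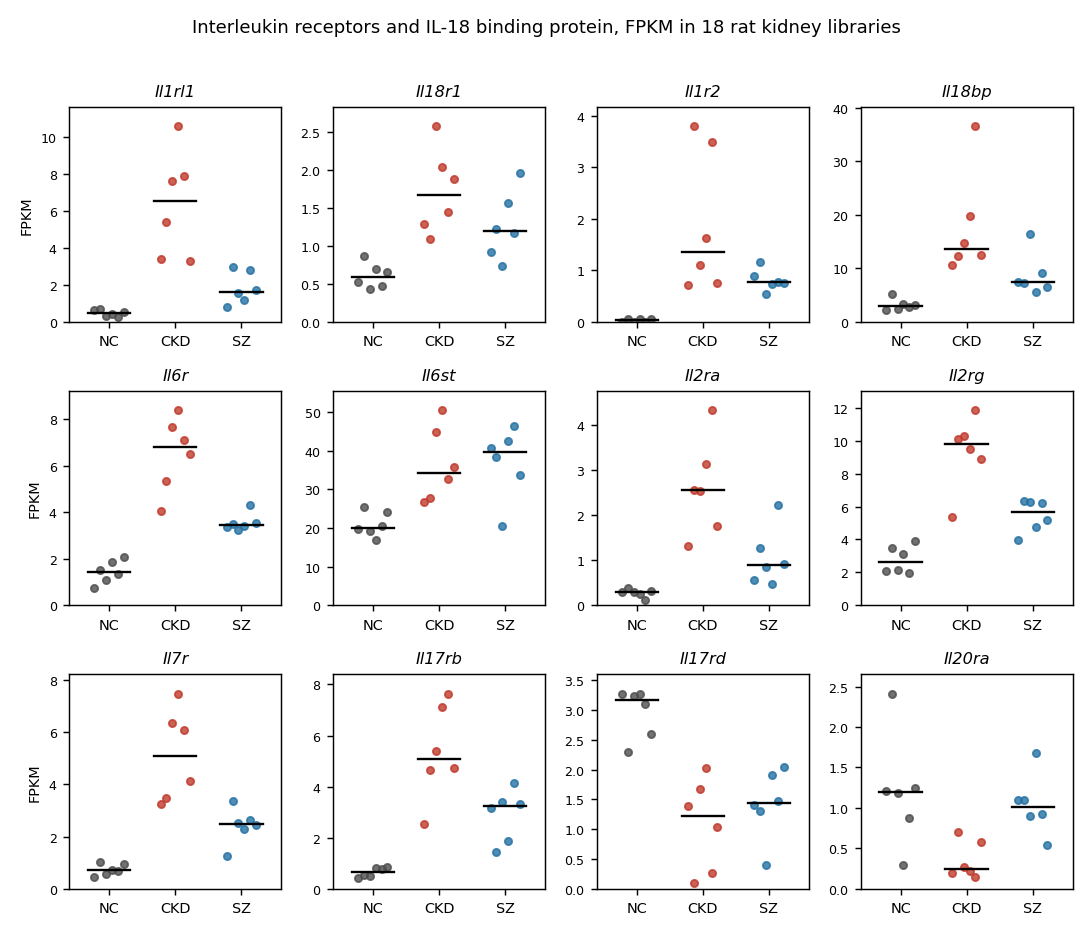
FPKM of 11 interleukin receptor genes and Il18bp in each library, 6 per group, with group medians as bars and every axis starting at 0. Il1rl1 is separated between all 3 groups, Il17rd is lower in every CKD and SZ library than in every NC library, and Il6st overlaps between CKD and SZ.

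In the interleukin 6 family the receptor genes were well measured and the ligands scarce. Il6, the acute phase cytokine, had 9 reads in NC, 366 in CKD and 67 in SZ. The 250 bases before its start (RefSeq, GRCr8, minus strand, chr4:5894576-5894825) are shown because a match to the NF-kB consensus lies in them, in capitals, at 68 to 59 bases before the start.
Il6: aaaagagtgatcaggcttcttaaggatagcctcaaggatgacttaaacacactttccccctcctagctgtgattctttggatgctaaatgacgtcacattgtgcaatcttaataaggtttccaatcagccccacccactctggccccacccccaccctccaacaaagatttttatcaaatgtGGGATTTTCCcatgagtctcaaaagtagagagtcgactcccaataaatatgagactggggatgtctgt
The NF-kB consensus, searched on both strands, stands in 3.54% of all promoters in the table and in 10 of the 67 entries for interleukin genes. Il6 ran from 0 to 0.128 FPKM in NC, from 0.347 to 3.63 in CKD and from 0.0455 to 0.392 in SZ. CKD 6 alone held 172 of the 366 CKD reads. The voom difference of CKD from NC was 5.03 (SE 0.91, adjusted p = 0.00020), and that of SZ from CKD was -2.06 (SE 0.65, adjusted p = 0.0503), just outside the threshold.

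Il6r, the binding chain for interleukin 6, ran from 0.735 to 2.06 FPKM in NC (median 1.43), from 4.03 to 8.39 in CKD (median 6.81) and from 3.25 to 4.32 in SZ (median 3.45). Only SZ 5, at 4.32 FPKM, reached the CKD range. Il6r rose by 1.62 log2 units (SE 0.15, limma adjusted p = 1.9e-07) and fell by 0.69 in SZ against CKD (SE 0.15, adjusted p = 0.011). The shared chain Il6st also rose with adenine, from 16.8 to 25.5 FPKM in NC to 26.7 to 50.5 in CKD, by 0.74 (SE 0.19, adjusted p = 0.0027). In SZ it ran from 20.4 to 46.4 FPKM with a median of 39.5, against 34.2 in CKD, a difference of 0.02 (SE 0.19, adjusted p = 0.96). Il11ra1 had medians of 22.1, 18.3 and 18.4 FPKM, with a CKD difference of -0.18 (SE 0.16, adjusted p = 0.37) that was called without CKD 2, CKD 5 and SZ 3 (-0.39, SE 0.14, adjusted p = 0.027). Il11, a ligand tied to fibroblast activation, had 0 reads in NC, 5 in CKD and 8 in SZ, but all 7993 bases of it lie inside the span of Tmem238 on the same strand, so this level is uncertain.

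Other ligands and receptor chains that use gp130 or its relatives moved in both directions. Lif, the leukaemia inhibitory factor, had medians of 0.335, 6.47 and 4.55 FPKM, rose by 2.38 log2 units (SE 0.27, limma adjusted p = 1.3e-06), and had a difference of -0.38 in SZ (adjusted p = 0.36). Cntf, a further gp130 ligand, fell by 1.13 in SZ against CKD (SE 0.21, adjusted p = 0.0053). Cntfr and Ctf1, named here after their values were seen, fell with adenine, by 1.27 (SE 0.15, adjusted p = 2.9e-06) and 0.96 (SE 0.19, adjusted p = 0.00039).

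Downstream of these receptors, Socs3 encodes the feedback inhibitor that binds gp130. It ran from 0.871 to 4.04 FPKM in NC, from 28.5 to 79.4 in CKD and from 11.5 to 29.5 in SZ, with medians of 1.94, 46.0 and 20.5. It rose by 3.96 log2 units (SE 0.27, limma adjusted p = 9.0e-09) and fell by 1.16 in SZ against CKD (SE 0.27, adjusted p = 0.016). In the list of 8 feedback inhibitors 4 rose and 0 fell in CKD, with a median of 0.58, and 2 fell in SZ against CKD, Socs3 and the phosphatase gene Ptpn6 (difference -0.33, adjusted p = 0.047). Of the 8 JAK and STAT genes tested 6 rose and 0 fell in CKD (median 0.42), Stat3 by 0.71 (SE 0.14, adjusted p = 0.00028) and Stat2 by 0.53 (SE 0.14, adjusted p = 0.0036). By limma 0 of the 8 were called in SZ against CKD, 0 had an unadjusted p under 0.05, and voom also called 0. Jak3 was listed at 0 in every library.

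All 10 interleukin 17 family genes together had 5 that could be tested, each a receptor chain. The ligands Il17a, Il17b, Il17c and Il17f had 11, 11, 2 and 1 reads over the 18 libraries, and Il25 was listed at 0. Il17a had 0 reads in NC, 8 in CKD and 3 in SZ. Of the 5 chains 4 rose with adenine and 1 fell, with a median of 0.76.

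Il17rb, the binding chain for interleukin 25, went furthest. It ran from 0.423 to 0.865 FPKM in NC (median 0.668), from 2.55 to 7.64 in CKD (median 5.07) and from 1.45 to 4.15 in SZ (median 3.25). It rose by 1.88 log2 units (SE 0.20, limma adjusted p = 7.3e-07) and fell by 0.69 in SZ against CKD (SE 0.20, adjusted p = 0.036). The fall was not called without CKD 3, CKD 4, CKD 5, SZ 1, SZ 2 or SZ 4 (adjusted p = 0.056 to 0.095) or without CKD 2, CKD 5 and SZ 3 together (0.088). Il17re, the chain for interleukin 17C, rose from a median of 0.436 FPKM to 2.18, by 1.15 (SE 0.18, adjusted p = 5.7e-05), and stood at 1.15 in SZ (adjusted p = 0.099 against CKD). Il17rc and Il17ra, which together bind interleukins 17A and 17F, rose by 0.76 (SE 0.18, adjusted p = 0.0017) and 0.36 (SE 0.11, adjusted p = 0.012). The medians in NC, CKD and SZ were 4.76, 9.60 and 7.55 FPKM for Il17rc and 10.1, 14.1 and 12.1 for Il17ra, and neither was called in SZ against CKD.

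Il17rd moved the other way. It encodes Sef, a member of the receptor family that is also known as an inhibitor of FGF signalling. The range was 2.30 to 3.27 FPKM in NC, 0.0898 to 2.03 in CKD and 0.398 to 2.05 in SZ, so every library given adenine lay below every NC library. The lowest 3 values were those of CKD 2, CKD 5 and SZ 3, the libraries in which long genes read low, and Il17rd has 5593 bases. It fell by 1.02 log2 units (SE 0.23, limma adjusted p = 0.0013), and by 0.65 without those 3 libraries (SE 0.13, adjusted p = 0.00061).

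Among the genes of the common gamma chain family, which serves lymphocyte growth and survival, 6 of 10 tested rose with adenine and 0 fell, with a median of 0.90 against -0.04 over all genes. Il2rg, the gamma chain itself, ran from 1.94 to 3.90 FPKM in NC (median 2.64), from 5.36 to 11.9 in CKD (median 9.79) and from 3.97 to 6.32 in SZ (median 5.67). It rose by 1.45 log2 units (SE 0.17, limma adjusted p = 1.9e-06) and fell by 0.67 in SZ against CKD (SE 0.17, adjusted p = 0.020). CKD 1, at 5.36 FPKM, was the one CKD library inside the SZ range. The fall was not called without CKD 5, SZ 1 or SZ 4 alone (adjusted p = 0.051 to 0.055), nor without CKD 2, CKD 5 and SZ 3 together (0.064).

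Il7r, the interleukin 7 receptor of T cells and their precursors, ran from 0.445 to 1.01 FPKM in NC (median 0.710), from 3.26 to 7.46 in CKD (median 5.09) and from 1.26 to 3.35 in SZ (median 2.48). CKD and SZ overlapped only at the edge of both ranges. It rose by 1.78 log2 units (SE 0.18, limma adjusted p = 3.4e-07) and fell by 0.82 (SE 0.18, adjusted p = 0.0105). Its ligand Il7, a product of stromal and epithelial cells, rose too, from a median of 0.541 FPKM to 3.35, by 1.46 (SE 0.14, adjusted p = 1.8e-07). In SZ Il7 had a median of 2.45 FPKM, a difference of -0.32 from CKD (SE 0.14, adjusted p = 0.13).

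Il2ra, the inducible chain that gives the interleukin 2 receptor high affinity, had medians of 0.289, 2.55 and 0.887 FPKM in NC, CKD and SZ. It rose by 1.45 log2 units (SE 0.19, limma adjusted p = 8.5e-06) and fell by 0.82 in SZ against CKD (SE 0.19, adjusted p = 0.016), which became 0.067 without CKD 2, CKD 5 and SZ 3. Il2rb, shared by the receptors of interleukins 2 and 15, had medians of 1.02, 5.12 and 3.01 FPKM and rose by 1.31 (SE 0.18, adjusted p = 1.1e-05), with a difference of -0.52 in SZ (adjusted p = 0.0635). Il15 was the one tested ligand whose CKD median lay below that of NC: it ran from 4.52 to 6.0 FPKM in NC, from 2.87 to 5.16 in CKD and from 1.91 to 4.77 in SZ. Its differences from NC were -0.34 in CKD (SE 0.15, adjusted p = 0.073) and -0.42 in SZ (SE 0.15, adjusted p = 0.059). The CKD difference passed without CKD 5 (0.038) or SZ 5 (0.031), and the SZ difference passed without CKD 5 (0.046), SZ 3 (0.036) or SZ 6 (0.040). Both passed without CKD 2, CKD 5 and SZ 3 together (0.029 and 0.024). Il15ra, which presents interleukin 15, rose from a median of 0.655 FPKM to 1.41, by 0.50 (SE 0.18, adjusted p = 0.032), and this was not called without NC 2, NC 3, CKD 3, CKD 5 or CKD 6 (0.060 to 0.086), without CKD 2, CKD 5 and SZ 3 together (0.084) or by voom (0.054).

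The tested binding chains for interleukins 4 and 13 gave no call in CKD against NC or SZ against CKD. Il4r had medians of 28.8, 26.3 and 33.3 FPKM in NC, CKD and SZ, with a CKD difference of -0.22 (SE 0.13, limma adjusted p = 0.17). Il13ra1 on chromosome X had medians of 6.86, 10.7 and 12.2 FPKM and a CKD difference of 0.42 (SE 0.22, adjusted p = 0.11). Without CKD 2, CKD 5 and SZ 3 it was called, at 0.72 (SE 0.10, adjusted p = 4.1e-05), and without CKD 5 or SZ 3 alone its p was 0.027 and 0.047. Il13ra1 on chromosome 11 was lower, with medians of 2.30, 2.82 and 3.16 FPKM in NC, CKD and SZ. It was called higher in SZ than in NC (0.36, SE 0.11, limma adjusted p = 0.027), which held in 21 of 28 alternatives. The ligand genes Il13 and Il4 had 6 and 0 reads in the 18 libraries.

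Il34 and Il16 stand outside the other families. Il34 shares a receptor with the growth factor of macrophages and is known as a product of tubular epithelium. It ran from 18.7 to 29.8 FPKM in NC (median 26.3), from 45.5 to 68.9 in CKD (median 60.1) and from 36.1 to 61.2 in SZ (median 52.9). CKD and SZ overlapped and lay above all NC libraries. The rise was 1.21 log2 units (SE 0.14, limma adjusted p = 2.1e-06), and the difference of SZ from CKD was -0.21 (SE 0.14, adjusted p = 0.34). The receptor gene of Il34, Csf1r, rose by 2.0 (SE 0.15, adjusted p = 2.6e-08) and fell by 0.61 in SZ (SE 0.15, adjusted p = 0.020). Il16, an attractant of CD4-bearing cells, rose from a median of 0.949 FPKM to 3.14, by 1.07 (SE 0.13, adjusted p = 3.4e-06), and had a median of 2.44 in SZ (adjusted p = 0.18 against CKD, and 0.041 without CKD 1).

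Il3ra, the interleukin 3 binding chain, rose from a median of 5.87 FPKM to 9.68, by 0.93 log2 units (SE 0.25, limma adjusted p = 0.00485), and had a median of 6.30 in SZ (adjusted p = 0.11 against CKD, and 0.029 without SZ 3). The beta chain that pairs with it, Csf2rb, went the opposite way: it ran from 96.9 to 133 FPKM in NC, from 18.2 to 62.5 in CKD and from 48.4 to 120 in SZ. Csf2rb fell by 1.58 (SE 0.24, adjusted p = 3.05e-05) and was 1.11 higher in SZ than in CKD (SE 0.24, adjusted p = 0.010). In the list of partners of interleukin receptors with other names, 6 of 8 tested rose and 1 fell in CKD, with a median of 1.13, and 1 rose and 3 fell in SZ against CKD.

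In the interleukin 12 family Il12rb2 alone was tested by limma, with medians of 1.74, 1.86 and 2.19 FPKM and no call. Il27ra, the interleukin 27 receptor, went from 23 reads in NC to 275 in CKD, a voom difference of 3.0 (SE 0.60, adjusted p = 0.000485), and had 108 reads in SZ (adjusted p = 0.10 against CKD). The ligand genes Il12a, Il12b, Il23a and Il27 had 124, 69, 150 and 35 reads over all 18 libraries and were not tested. Il21r, of the gamma chain family, rose by 2.13 in voom (SE 0.31, adjusted p = 2.7e-05), from a median of 0.194 FPKM to 0.894. Il4i1 rose by 2.95 (SE 0.70, adjusted p = 0.0019), but it overlaps Nup62 on the same strand over 19574 bases, so its reads are uncertain. The remaining voom-only genes, Il31ra, Il12rb1 and Il22ra1, were not called in CKD against NC or SZ against CKD.

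Of the 34 genes below the filters of both tests, 25 were ligands. Besides the 8 listed at 0, 10 had fewer than 10 reads in all libraries together, and the highest total was 150 reads, for Il23a. Of these 34 genes 10 had 0 reads in NC and at least 1 elsewhere, Il1a, Il20, Il17a, Il11 and Il13 among them. The filters leave these genes untested. Limma with no filter called 5 of them higher in CKD than in NC (Il10, Il20, Il20rb, Il9r and Il23r, named after their values were seen) and 1, Il10, lower in SZ than in CKD. That fit called 34.0% of all 23814 genes in CKD against NC, 51.9% of them upward. In SZ against CKD it called 4.61%, of which 30.8% were upward. No conclusion about these genes as a set is drawn from such counts.

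Genes that process interleukin 1 family ligands rose with adenine, 6 of 8 tested and 0 lower, with a median of 1.09, and 3 fell in SZ against CKD (2 by voom). Pycard, the inflammasome adaptor ASC, had medians of 2.30, 10.9 and 6.13 FPKM, rose by 2.07 log2 units (SE 0.27, limma adjusted p = 6.85e-06) and fell by 0.87 in SZ (SE 0.27, adjusted p = 0.047, and 0.062 by voom). Casp1, the protease that matures interleukins 1 beta and 18, had medians of 2.85, 10.7 and 5.79 FPKM, rose by 1.51 (SE 0.18, adjusted p = 1.9e-06) and fell by 0.66 (SE 0.18, adjusted p = 0.025). Gsdmd, the pore through which the matured cytokines leave, fell by 0.75 in SZ against CKD (SE 0.19, adjusted p = 0.020). In the MyD88 branch 6 of 12 tested genes rose and 2 fell in CKD, with a median of 0.53, and 2 fell in SZ against CKD (1 by voom). Nfkbiz, an inducible NF-kB cofactor, rose by 1.91 (SE 0.25, adjusted p = 6.9e-06) and fell by 0.82 (SE 0.25, adjusted p = 0.042), and the inhibitor gene Nfkbia fell by 0.87 in SZ (SE 0.27, adjusted p = 0.048, and 0.0502 by voom). The 2 that fell with adenine, named after their values were seen, were Tollip (-0.69) and Irak2 (-0.31).

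Markers of immune cells moved in the same libraries, and their part in the interleukin values was not tested. The summed FPKM of 8 macrophage genes ran from 103 to 199 in NC, from 969 to 2026 in CKD and from 400 to 888 in SZ. All 8 rose in CKD and 7 of 8 fell in SZ against CKD. Of all genes tested by limma, 24.4% were called higher in CKD than in NC and 6.82% lower in SZ than in CKD. The counts in each marker list are to be read against these shares. For 5 T cell genes the sums ran from 2.08 to 4.01 in NC, from 9.62 to 31.6 in CKD and from 8.02 to 14.5 in SZ, with 5 of 5 higher in CKD and 3 of 5 lower in SZ against CKD (1 of 5 by voom). The 6 B and plasma cell genes summed to 2.98 to 17.0 in NC, 12.8 to 56.9 in CKD and 8.30 to 32.3 in SZ, and 3 of 3 tested rose in CKD. The 6 neutrophil genes summed to 1.05 to 7.17 in NC, 5.93 to 27.4 in CKD and 4.30 to 10.3 in SZ, while the granule gene Mpo had a median of 0 in each group. Of 3 dendritic cell genes tested 3 rose in CKD and 1 fell in SZ against CKD. By limma and by voom 0 of 3 natural killer cell genes were called in either comparison, with 1 at an unadjusted p under 0.05 in each.

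Set against untreated kidneys, 22 of the 35 genes were higher in the SZ group and 1, Il17rd, was lower, where 12.5% of all genes tested were higher and 8.61% lower. Il19 and Il24 stood 3.28 (SE 0.31, limma adjusted p = 1.55e-06) and 2.20 (SE 0.22, adjusted p = 3.4e-06) log2 units above NC, and Il1rn 2.79 (SE 0.30, adjusted p = 7.0e-06). The lowest SZ library was above the highest NC library for each of these 3. Il34 stood 1.00 above NC (SE 0.14, adjusted p = 8.4e-05), Il7 1.14 (SE 0.14, adjusted p = 1.5e-05) and Il6st 0.76 (SE 0.19, adjusted p = 0.0069). For Il18 the difference of SZ from NC was 0.37 (SE 0.15, adjusted p = 0.087; 0.025 without CKD 5 and 0.038 without CKD 2, CKD 5 and SZ 3), and for Il20ra it was -0.07 (SE 0.19, adjusted p = 0.82). The lower level of Il17rd, -0.74 (SE 0.23, adjusted p = 0.028), was not called without NC 1, NC 3, NC 4, NC 5 or SZ 3 (0.051 to 0.065) or by voom (0.075), and held in 18 of 28 alternatives.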

How the data were processed

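Total RNA from whole rat kidneys, extracted with Trizol and prepared with an Illumina TruSeq RNA kit per the labels' protocols, was sequenced in 18 libraries, 6 each of NC, CKD and SZ. The authors deposited 1 table of FPKM values with gene length, gene positions and symbols for 32116 genes. Per the submitters' processing notes, HISAT2 2.0.5 and the build mRatBN7.2 were used. The sources used here name neither a counting program nor a strand setting or annotation release, so overlapping genes cannot be told apart. FPKM times gene length gave whole multiples of 1 step for 100% of values above 0, within a tolerance of 0.01, which recovers reads per gene. The library size used by the authors was on average 0.896 times the read total for NC libraries, 1.14 times for CKD and 1.04 times for SZ.

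Genes with an FPKM of at least 1 in at least 6 libraries (13851) entered limma 3.58.1 (R 4.3.3) as log2(FPKM + 1). All 18 libraries shared 1 model of 3 means with a variance trend. Tests were 2-sided, p-values were adjusted over all tested genes by the Benjamini-Hochberg method, and the threshold was 0.05. Voom on recovered reads (at least 10 reads in at least 6 libraries, 15980 genes, sizes by median ratio) was an alternative and the test for genes under the FPKM filter. It does not replace limma where both exist. Reads carry no molecular identifiers, so copies of 1 molecule cannot be told apart and read totals may vary by more than counting error. The limma step was tested on simulated data.

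Genes given with full values followed a rule: in each family the up to 4 tested genes with the highest mean FPKM, every gene called in SZ against CKD, the 5 largest and 5 smallest differences called in CKD against NC, and 16 genes named whatever their values. Others are given by level. A pathway gene is named if called and among the 2 largest differences of its list. The genes, lists and alternatives were chosen with earlier results of these data known. Irak1, Clcf1, Tslp, Ptprz1, Avpr2, Cd4, Trac, Ncr1, Gzmb and Mcpt2 of these lists were not analysed here, and some listed genes are not reported here. Promoter sequences are RefSeq's on GRCr8, matched by symbol for 60 of 77 symbols, with 67 entries. Alternatives were voom, another pseudocount (0.1), no low-value filter, a stricter one (mean FPKM 5 or above), scaling to 1 FPKM sum (TPM) or by read totals, a fit of only the groups compared, a replicate block, no trend, robust variance, and leaving out libraries singly or CKD 2, CKD 5 and SZ 3 together.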

Additional observations from a re-analysis of the deposited data

Results flagged for a closer look

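Of 105 groups of 6 libraries tested for a single library far from the rest (Dixon's test at the 95% level), 12 held one, where chance gives about 1 in 20. In CKD 5, Il18bp stood at 36.56 FPKM (next library 19.86) and Il18 at 10.71 (next 6.198). In SZ 3, Il18bp stood high at 16.41 FPKM (next 9.015), while Il13ra1 on chromosome X stood low at 5.092 (next 10.83), as did Il1r1 at 2.02 (next 4.95) and Il1rap at 1.261 (next 3.027). Il18bp and Il18 are short genes (1155 and 1154 bases), Il13ra1, Il1r1 and Il1rap are longer (3651, 4794 and 3244 bases), and these are the libraries with the length slopes of -0.31 and -0.25. In CKD 6, Il6 stood at 3.635 FPKM from 172 reads (next 1.574) and Il11 at 0.1218 FPKM from 4 reads (next 0.02734). In NC 6, Il1b stood at 4.037 FPKM (next 1.675), and in NC 2, Il18bp stood at 5.184 (next 3.314). Il18 in SZ 1 was low at 3.637 FPKM (next 4.432), and Il6r in SZ 5 was high at 4.318 (next 3.527).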

How the results depend on the processing

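For CKD against NC, SZ against CKD and SZ against NC, limma called 26, 12 and 23 interleukin genes. Restricting the test to a mean FPKM of at least 5 left 15 interleukin genes tested and 10, 5 and 8 called, where 52.4, 13.1 and 19.2% of all genes were. The counts of interleukin genes were 31, 12 and 27 of 44 tested with voom, and 37, 10 and 24 of 70 with no filter. Of 36 tested they were 31, 15 and 26 with TPM scaling, and 31, 14 and 26 with plain totals. In these 4 settings the share of all genes called was 48.8, 9.62 and 19.6% (voom), 34.0, 4.61 and 12.2% (no filter), 57.1, 14.5 and 26.9% (TPM), and 55.8, 15.45 and 23.5% (plain totals). Of 35 tested they were 26, 11 and 22 with a pseudocount of 0.1, and 26, 12 and 23 with no trend or with robust variance. With only the 2 groups compared the counts were 28, 9 and 26, where 48.0, 4.0 and 29.2% of all genes were called. Without CKD 2, CKD 5 and SZ 3 they were 30, 8 and 27, where 50.2, 10.7 and 28.0% of all genes were. Leaving out each library in turn gave counts of 25 to 28, 8 to 15 and 20 to 26. The share of all genes called then ran from 46 to 53.3%, 3.85 to 22.1% and 15.8 to 24.3%. With the replicate number as a replicate block the counts were 26, 10 and 22, where 47.9, 8.63 and 18.7% of all genes were called. The labels do not say whether same-numbered libraries belong together. The correlation of their deviations from group means ran from -0.36 (SZ 3 with CKD 3) to 0.23 (CKD 6 with NC 6). Differently numbered pairs were not set beside these, so whether same-numbered libraries share a batch was not tested. Across the named genes 2525 alternative values stayed on the same side of the threshold, 73 lost the call and 51 gained one. Where either fit gave a call, 0 changed direction. Changes of direction between fits without a call were not counted. Il33 in SZ against CKD, for example, went from 0.09 to -0.01 without CKD 2, CKD 5 and SZ 3. In SZ against CKD, Il19, Il24, Il1rn, Il1b, Il1rl1, Il6r and Il7r were called under every alternative that could test them, while Il20ra was called in 13 of 28, Il17rb in 18 of 28 and Il18bp in 18 of 29; the cause was not tested. Low read totals limit the ligands most: 25 of 36 were under the filters of both limma and voom.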
